A study of Homo sapiens with 9 samples.

Results

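Reoxygenated brain endothelial cells were compared with untreated control cells, across every gene of the deposited table that had an FPKM value (fragments scaled to transcript length and to the mapped fragments of the library) of at least 1 in at least 3 of the 9 libraries of the series. Of 15570 genes in the table, 10818 (69.5%) met that rule. The comparison used 6 of the 9 libraries. The control group held 3 libraries of hCMEC/D3 cells, a clonal, immortalised line of human brain microvascular endothelial cells that carries telomerase and a viral large T antigen. The OGD/R group held 3 libraries of the same line after oxygen and glucose deprivation (OGD) for 4 h, in medium without glucose under 95% N2 and 5% CO2, followed by 16 h of reoxygenation in normal medium under 21% O2 and 5% CO2. The other 3 libraries, taken at the end of the deprivation, are not part of the comparison. No separate control for the changes of medium or for the added hours in culture is described, so these cannot be told apart from deprivation and reoxygenation.

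The endothelium of brain vessels seals the space between its cells with tight and adherens junctions, carries glucose and amino acids across by dedicated transporters, and rests on a basement membrane. Deprivation followed by reoxygenation is a culture model of a blocked and reopened vessel. In such cells the unfolded protein response and the ATF4 pathway answer a loss of glucose and amino acids, HIF answers a loss of oxygen, NF-kB drives cytokines and adhesion molecules, and SREBP2 sets the enzymes of cholesterol synthesis by the sterol content of the endoplasmic reticulum.

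The libraries of a group were more alike than those of different groups. Pearson correlations of log2 values were 0.981 to 0.985 among control libraries, 0.990 to 0.993 among OGD/R libraries and 0.953 to 0.970 between the 2 groups. Control replicate 3 stood somewhat apart from the other controls, at 7.05 on the first principal component against -14.5 and -9.97, with OGD/R at -47.1 to -30.2. The labelled cell type was checked against 33 endothelial genes, of which 28 were in the table and 15 passed the filter. VWF, KDR, FLT1, TEK, TIE1, ERG, SOX17 and 5 others read under 1 FPKM in all 6 libraries, and CDH5 and PECAM1 read 0.871 to 2.62 FPKM. Several defining endothelial transcripts were thus near 0 in control and OGD/R alike. Other members of the list were expressed in all 6 libraries, such as CAV1 at 94 to 123 FPKM, ENG at 11.1 to 38.0 and ETS1 at 11.3 to 27.8. FLI1 read 9.23 to 17.3 FPKM, EGFL7 6.71 to 14.8, ECSCR 8.91 to 12.9 and CLEC14A 5.86 to 15.7. No source used here says that replicates were separate cultures, so p-values here speak of library-to-library spread, which may be technical.

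At a Benjamini-Hochberg adjusted p under 0.05 in limma, 4460 genes (41.2% of those tested) differed between OGD/R and control. Of these, 2673 (24.7%) were higher and 1787 (16.5%) lower in OGD/R. A change of at least 2-fold on the log2(FPKM + 1) scale was reached by 329 higher genes (3.04%) and 48 lower genes (0.444%). Over all genes tested the median was 0.07 on the log2 scale. Of the 10818 genes tested, 3081 had every OGD/R library above every control and 2087 had every OGD/R library below. Higher genes made up 59.9% of the calls on the deposited scale, 49.0% after median-of-ratios scaling (2393 higher, 2493 lower) and 48.9% after quantile normalization (2394 higher, 2504 lower). Across 20 other ways of fitting the data, 1294 higher and 512 lower genes were called in the same direction every time. Of the genes called at least 2-fold, 311 of the higher and 45 of the lower were called in the same direction in all 20.

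**Figure D1:**
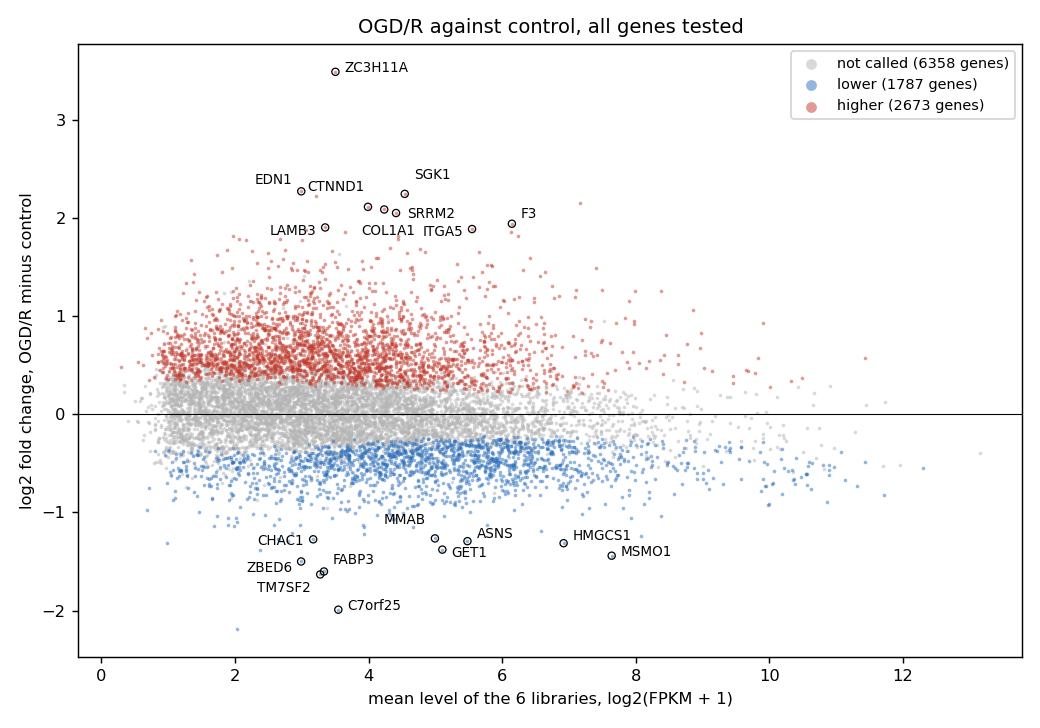
Each point is 1 of the 10818 genes tested, with the mean level of the 6 libraries on the horizontal axis, as log2(FPKM + 1), and the log2 fold change of OGD/R over control on the vertical axis. Red points are the 2673 genes called higher, blue points the 1787 called lower and grey points the 6358 not called, and 9 of the 10 largest rises and the 10 largest falls under the naming rule are circled and labelled. Rises spread further from 0 than falls do, and blue points lie more to the right, at higher levels.

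The genes that rose and those that fell differed in transcript length and base composition. Median transcript length was 3323 nt for higher genes, 1549 nt for lower genes and 2483 nt for all genes tested, and median GC content was 53.3%, 45.2% and 49.2%. With genes placed in 10 equal bins by length, the bin medians of the log2 fold change climbed from -0.29 to 0.30. Over bins of GC content it went from -0.15 in the lowest to 0.24 in the middle and 0.08 in the highest. Length and GC together accounted for 33.6% of the variance of log2 fold changes over 10804 genes. The slope of log2 FPKM on length was -0.08 to 0.05 per doubling in control and 0.15 to 0.25 in OGD/R, relative to the mean of all libraries. With the length and GC trends removed, which was added after seeing the data, 2247 genes were higher and 1094 lower, and 2403 of the 4460 calls made without this step were called in the same direction and 19 in the opposite one. Where removal of a trend moved the counts of a gene list strongly, the counts are given beside the list.

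**Figure D2:**
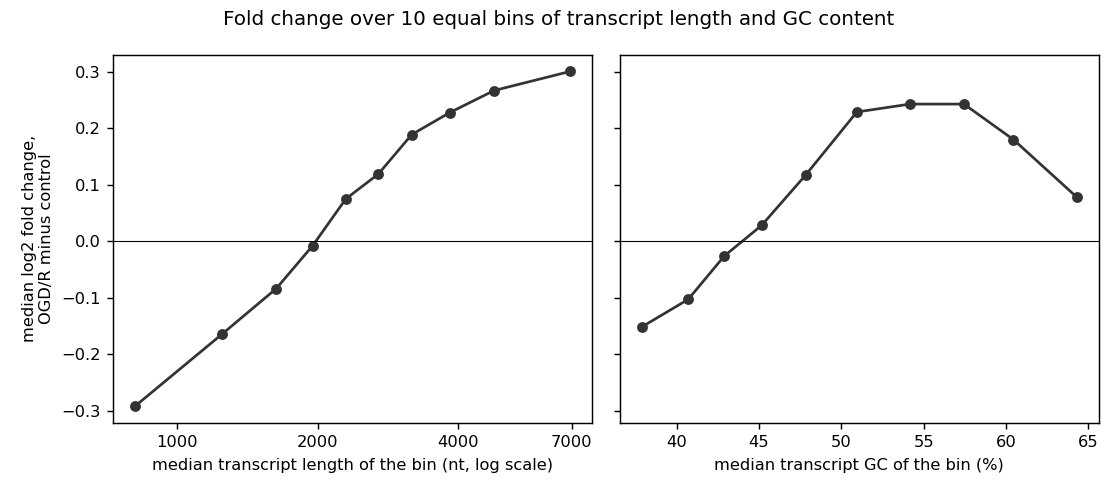
The points are medians of the log2 fold change of OGD/R over control in 10 equal bins of genes, ordered by transcript length on the left (nt, log scale) and by transcript GC content on the right (%). The line on the left rises without a break from -0.29 to 0.30, while that on the right climbs from -0.15 to 0.24 and falls back to 0.08.

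Among the largest rises were EDN1, F3, SGK1 and ITGA5. EDN1, which encodes the vasoconstrictor endothelin-1 (chromosome 6, 12230516 to 12297194 on GRCh38.p14), read 2.03, 1.94 and 1.24 FPKM in control and 10.4, 13.2 and 12.9 FPKM in OGD/R (6.996-fold, log2 fold change 2.27, SE 0.15, adjusted p = 2.54e-06). All 3 OGD/R libraries stood far above all 3 controls. The rule that named the largest rises admitted only genes whose groups did not overlap, so separation in these genes was fixed by their choice. F3, tissue factor, which starts the coagulation cascade, read 34.7, 24.7 and 25.6 FPKM in control and 100.5, 129.9 and 103 FPKM in OGD/R (3.92-fold, log2 fold change 1.94, SE 0.13, adjusted p = 2.61e-06). For F3, too, the lowest OGD/R value lay well above the highest control value. SGK1, a serum- and glucocorticoid-regulated kinase, read 7.63, 5.49 and 8.23 FPKM in control and 31.1, 44.3 and 37.0 FPKM in OGD/R (5.26-fold, log2 fold change 2.24, SE 0.15, adjusted p = 2.54e-06). ITGA5, the alpha chain of the fibronectin receptor, rose from 19.1 to 72.5 FPKM (1.89), LAMB3, a laminin chain, from 3.30 to 15.1 FPKM (1.90) and COL1A1, a chain of type I collagen, from 6.29 to 29.3 FPKM (2.09). SRRM2, a splicing cofactor of nuclear speckles, rose from 7.44 to 33.1 FPKM (2.05).

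Some of the largest rises and falls rest on uncertain values. ZC3H11A, an RNA export factor, had the largest rise of all under the naming rule, with 0.0693, 1.46 and 1.38 FPKM in control and 18.0, 19.7 and 21.4 FPKM in OGD/R (log2 fold change 3.49, SE 0.49, adjusted p = 0.000212). ZBED6, a transcription repressor gene that overlaps ZC3H11A on the genome, fell, with 12.2, 10.1 and 9.23 FPKM in control and 2.30, 5.72 and 2.01 FPKM in OGD/R (log2 fold change -1.50, SE 0.37, adjusted p = 0.00725). Reads may be shared between these overlapping genes, so their opposite changes are uncertain. CTNND1, which encodes p120-catenin of adherens junctions, read 13.2, 0 and 9.69 FPKM in control and 20.6, 25.2 and 20.6 FPKM in OGD/R (log2 fold change 2.11, SE 0.70, adjusted p = 0.0298), and control replicate 2 is listed at 0, which can be a failed estimate. The CTNND1 call was lost in 8 of 20 alternatives, with adjusted p = 0.0591 to 0.129. C7orf25 read 20.8, 14.9 and 12.8 FPKM in control and 9.51, 0.0436 and 5.99 FPKM in OGD/R (log2 fold change -1.99, SE 0.61, adjusted p = 0.0212), with 1 OGD/R library near 0. Its call was lost in 5 alternatives, with adjusted p = 0.0509 to 0.105.

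Among the other large falls were genes of sterol synthesis. TM7SF2, a sterol reductase of cholesterol synthesis (chromosome 11, 65111872 to 65116230 on GRCh38.p14), read 14.0, 13.9 and 13.0 FPKM in control and 3.71, 3.81 and 3.66 FPKM in OGD/R (3.66-fold lower, log2 fold change -1.63, SE 0.11, adjusted p = 2.54e-06). MSMO1, a sterol demethylase (chromosome 4, 165327669 to 165343164 on GRCh38.p14), read 276, 342 and 253 FPKM in control and 97.4, 114 and 106 FPKM in OGD/R (2.75-fold lower, log2 fold change -1.44, SE 0.11, adjusted p = 5.85e-06). HMGCS1, the HMG-CoA synthase of the mevalonate pathway (chromosome 5, 43287470 to 43313412 on GRCh38.p14), read 195, 171 and 149 FPKM in control and 63.8, 67.0 and 74.0 FPKM in OGD/R (2.52-fold lower, log2 fold change -1.31, SE 0.13, adjusted p = 2.38e-05). In all 3 genes every OGD/R library lay below every control, as the rule that named the largest falls required. ASNS, asparagine synthetase, fell from 62.3 to 24.96 FPKM (-1.29) and CHAC1, which degrades glutathione, from 11.7 to 4.26 FPKM (-1.27), both targets of ATF4. MMAB, a cobalamin adenosyltransferase whose gene overlaps that of mevalonate kinase (MVK), fell from 44.0 to 17.7 FPKM (-1.26). FABP3, a fatty acid binding protein gene that overlaps ZCCHC17, fell from 14.2 to 3.90 FPKM (-1.60). GET1, a receptor for tail-anchored proteins at the endoplasmic reticulum whose gene overlaps GET1-SH3BGR and LCA5L, fell from 48.7 to 18.1 FPKM (-1.38).

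**Figure D3:**
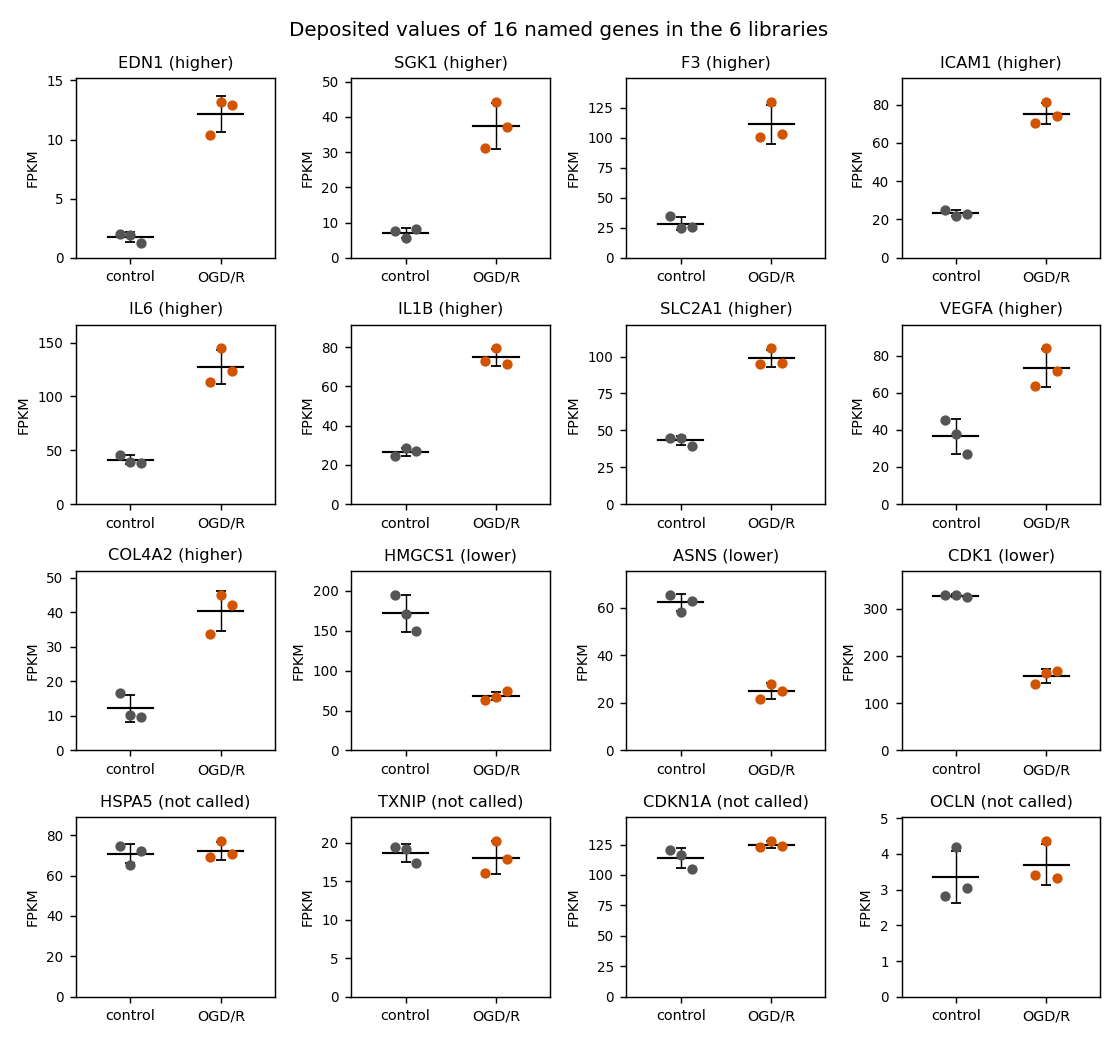
Each panel plots 1 gene, with the deposited FPKM of the 3 control libraries (grey) and the 3 OGD/R libraries (orange) as points, their means as horizontal lines and their SD as whiskers, on axes that start at 0. In the 9 panels marked higher and the 3 marked lower the groups do not overlap. The naming rule required this of EDN1, SGK1, F3, HMGCS1 and ASNS. HSPA5, TXNIP and OCLN overlap, and CDKN1A does not overlap but differs by 0.14 on the log2 scale and was not called.

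Most of the NF-kB and cytokine genes tested were higher in OGD/R. Of 28 genes listed for NF-kB and cytokines, 23 passed the filter, 18 of them (78.3%) were higher and 0 lower, against 24.7% and 16.5% of all genes tested. Their median log2 fold change was 0.89, against 0.07 for all genes. IL6, interleukin-6 (chromosome 7, 22727200 to 22731998 on GRCh38.p14), read 45.9, 39.5 and 38.7 FPKM in control and 113, 145 and 124 FPKM in OGD/R (3.08-fold, log2 fold change 1.597, SE 0.11, adjusted p = 2.54e-06). IL1B, interleukin-1 beta, read 24.6, 28.6 and 27.0 FPKM in control and 73.2, 79.5 and 71.7 FPKM in OGD/R (2.80-fold, log2 fold change 1.45, SE 0.08, adjusted p = 2.54e-06). LIF, leukemia inhibitory factor, a cytokine of the IL6 family, read 5.15, 4.58 and 3.48 FPKM in control and 14.5, 19.8 and 21.8 FPKM in OGD/R (4.25-fold, log2 fold change 1.86, SE 0.16, adjusted p = 1.4e-05). CXCL8, a neutrophil chemokine, read 39.2, 42.1 and 34.9 FPKM in control and 72.5, 96.8 and 96.1 FPKM in OGD/R (2.29-fold, log2 fold change 1.16, SE 0.12, adjusted p = 3.08e-05). In none of these 4 genes did the groups overlap. ICAM1, an adhesion molecule that binds leukocyte integrins, read 25.1, 21.8 and 23.0 FPKM in control and 70.4, 81.4 and 74.0 FPKM in OGD/R (3.24-fold, log2 fold change 1.65, SE 0.09, adjusted p = 2.54e-06) and was the member called higher among the 7 of 13 leukocyte adhesion genes that passed the filter, with 0 lower. Of these 7 genes 14.3% were thus higher, below the 24.7% of all genes tested. Without control replicate 2 or OGD/R replicate 1, 2 of the 7 were higher. VCAM1 stayed below the filter, with 0.0664, 0.194 and 0.188 FPKM in control and 0.535, 0.812 and 0.903 FPKM in OGD/R. Among leukocyte markers ITGAM was at 0 in all 6 libraries and PTPRC under 1 FPKM, while CD68 read 17.1 to 20.7 FPKM in control and 25.6 to 27.2 in OGD/R. Of the 9 leukocyte and microglia genes in the table, 7 read under 1 FPKM in all 6 libraries, and CD68 and CD14, whose gene overlaps TMCO6, were called higher. Their summed level was 18.2 to 21.6 FPKM in control and 27.6 to 29.9 in OGD/R.

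A short NF-kB motif was common before the starts of these genes. The letters GGGA and TTCC with any 2 bases between them were searched on both strands of the 250 bases before the annotated start in RefSeq (GRCh38.p14), taking the first start listed for a gene. They were found in 9 of the 18 list promoters that had an entry (50.0%) and in 1.43% of 8999 promoters of tested genes. The promoter of IL6 is shown as that of a member with a match whose values are given above. It lies at chr7:22726950-22727199 on the plus strand, its match starts 73 bases before the gene, and capitals mark the match.
IL6: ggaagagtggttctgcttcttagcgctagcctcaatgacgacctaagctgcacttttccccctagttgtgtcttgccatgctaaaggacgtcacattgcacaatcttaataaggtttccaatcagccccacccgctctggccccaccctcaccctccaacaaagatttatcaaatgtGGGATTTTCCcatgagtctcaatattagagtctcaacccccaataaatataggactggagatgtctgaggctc
Among genes called higher 1.55% of promoters held these letters and among genes called lower 1.42%, close to the share over all promoters. A match describes letters in this window and is not a bound site. Other short motifs were searched in the same way for other lists. The AP-1 letters TGANTCA stood in 0 of 15 immediate early promoters and in 3.62% of all. The SREBP letters TCACNCCAC stood in 1 of 18 cholesterol promoters (0.878% of all), and in 0 of the 13 called. The HIF letters ACGTG stood in 13 of 24 HIF target promoters (24.1% of all). The remaining searches are not reported here.

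Interferon-stimulated genes were higher more often than lower in OGD/R. Of 36 tested, 17 (47.2%) rose and 3 (8.33%) fell, with a median of 0.29. OAS3, an antiviral oligoadenylate synthetase (chromosome 12, 112938474 to 112973251 on GRCh38.p14), read 28.9, 30.1 and 35.3 FPKM in control and 71.2, 79.0 and 71.0 FPKM in OGD/R (2.35-fold, log2 fold change 1.21, SE 0.10, adjusted p = 7.82e-06). MX1, an antiviral GTPase, read 187, 164 and 171 FPKM in control and 312, 369 and 307 FPKM in OGD/R (1.90-fold, log2 fold change 0.92, SE 0.10, adjusted p = 3.53e-05). HLA-B, which presents peptides to T cells and belongs to a family of near-identical genes, rose from 666 to 1255 FPKM (0.93). In these genes the OGD/R libraries lay above the controls without overlap. Against that direction, IFIT1 and IFIT5, antiviral RNA-binding proteins whose gene spans overlap LIPA, fell, IFIT1 from 249.1 to 193 FPKM (-0.37) and IFIT5 from 45.5 to 33.6 FPKM (-0.42). IFI27, the most abundant of the 3, read 2571, 2053 and 2703 FPKM in control and 1926, 1658 and 2000 FPKM in OGD/R (log2 fold change -0.39, SE 0.13, adjusted p = 0.0358), and this call was lost in 14 of 20 alternatives. The response element letters, GAAA repeated after any 2 bases, on either strand, stood in 16 of 28 list promoters (57.1%) and in 2.40% of all 8999, and in 3.23% of promoters of genes called higher against 2.23% of those called lower. The 16 included those of IFIT1, IFIT5 and IFI27, which were called lower. The OAS3 promoter is shown as the member with the largest rise, at chr12:112938224-112938473 on the plus strand, with matches in capitals that start 143 and 12 bases before the gene.
OAS3: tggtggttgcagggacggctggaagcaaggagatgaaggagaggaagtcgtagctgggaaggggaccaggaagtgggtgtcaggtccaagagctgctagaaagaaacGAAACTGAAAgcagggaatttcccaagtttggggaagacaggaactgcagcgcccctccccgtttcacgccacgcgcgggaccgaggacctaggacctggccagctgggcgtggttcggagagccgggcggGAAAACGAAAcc

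Most genes of cholesterol synthesis were lower in OGD/R. Of 25 genes listed for the pathway and for SREBP2, 17 (68.0%) were lower, against 16.5% of all genes tested, and 1 was higher. The median log2 fold change was -0.67, and 7 genes fell at least 2-fold. Because its share of falls was the largest of the lists, 18 enzymes of this pathway are given, a choice made after the values were seen. Of these 18, 15 were lower with no overlap between the groups, 0 were higher and 3 were not called. Of all 10818 genes tested, 2087 had every OGD/R library below every control. The first step, thiolase ACAT2, whose gene overlaps TCP1 and SOD2, fell from 379 to 159 FPKM (-1.24). The next enzyme, HMGCS1, is described above. MVK, MVD, IDI1 and FDPS, which carry mevalonate to farnesyl diphosphate, fell by 0.92, 1.13, 1.02 and 1.03 on the log2 scale, with MVK overlapping MMAB and IDI1 overlapping WDR37. FDFT1 and SQLE, which make squalene and its epoxide, fell, the former from 301 to 176 FPKM (-0.77) and the latter from 56.1 to 35.1 FPKM (-0.66). After lanosterol, TM7SF2 and MSMO1 fell most, and CYP51A1, NSDHL, HSD17B7, EBP and SC5D fell by 0.39 to 0.91. PMVK, LSS and DHCR7 were not called, with adjusted p = 0.184 to 0.305. Of the 15 falls, 13 were called in all 20 alternatives.

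**Figure D4:**
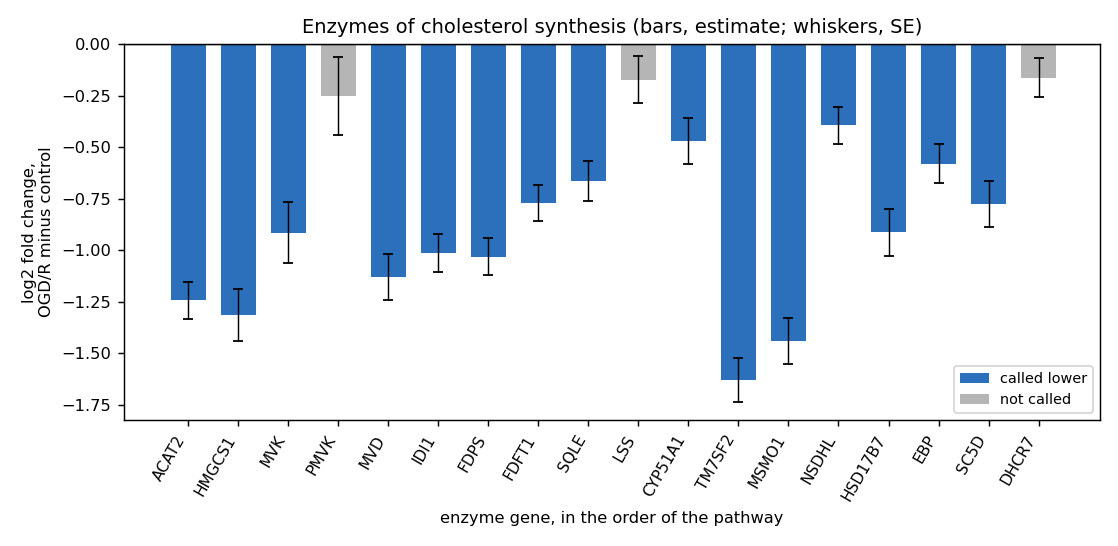
Bars give the log2 fold change of OGD/R over control for 18 enzymes of cholesterol synthesis in the order of the pathway, and whiskers give its SE, with blue for genes called lower and grey for genes not called. All bars lie below 0, the deepest are those of TM7SF2 (-1.63), MSMO1 (-1.44), HMGCS1 (-1.31) and ACAT2 (-1.24), and the 3 grey bars are those of PMVK, LSS and DHCR7.

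Fatty acid genes did not follow as a group, with 2 of 20 higher, 5 lower and a median of -0.01. The higher genes numbered 4 without control replicate 1, and 1 without control replicate 3, OGD/R replicate 2 or OGD/R replicate 3. Among them ACSS2, which makes acetyl-CoA from acetate, fell from 43.7 to 24.6 FPKM (-0.80), the elongase gene ELOVL6 from 17.4 to 9.47 FPKM (-0.82) and the acyl-CoA synthetase gene ACSL3 from 81.9 to 53.5 FPKM (-0.60). SREBF1, a regulator of fatty acid synthesis whose gene overlaps RAI1, rose from 13.2 to 21.9 FPKM (0.68). FASN, fatty acid synthase, read 16.5, 13.4 and 8.12 FPKM in control and 16.3, 21.3 and 20.5 FPKM in OGD/R (log2 fold change 0.62, SE 0.20, adjusted p = 0.025), with groups that overlapped and a call lost in 6 alternatives.

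Genes of the ATF4 response were lower more often than higher. Of 27 tested, ATF4 itself among them, 11 (40.7%) fell and 8 (29.6%) rose, against 16.5% and 24.7% of all genes tested. The list median was -0.22. ASNS read 65.7, 58.4 and 62.8 FPKM in control and 21.6, 28.1 and 25.1 FPKM in OGD/R (2.496-fold lower, log2 fold change -1.29, SE 0.10, adjusted p = 5.47e-06). CHAC1 read 12.8, 11.3 and 11.1 FPKM in control and 4.22, 4.45 and 4.12 FPKM in OGD/R (2.75-fold lower, log2 fold change -1.27, SE 0.11, adjusted p = 1.33e-05). PSPH, an enzyme of serine synthesis, fell from 26.4 to 12.2 FPKM (-1.02). The libraries of the 2 groups did not overlap in any of the 3, which the naming rule required of ASNS and CHAC1. The members that rose included STC2, a secreted glycoprotein (from 30.6 to 79.2 FPKM, 1.34), SLC7A5, the large neutral amino acid transporter of the blood-brain barrier (from 17.1 to 43.3 FPKM, 1.31), and PPP1R15A, which helps to remove phosphate from eIF2-alpha (from 21.0 to 48.1 FPKM, 1.17). With the length and GC trends removed 5 were higher and 13 lower. DDIT3, which encodes the transcription factor CHOP and whose gene overlaps MARS1, read 36.1, 23.9 and 36.1 FPKM in control and 21.2, 18.7 and 18.2 FPKM in OGD/R (1.66-fold lower, log2 fold change -0.68, SE 0.14, adjusted p = 0.00203). The amino acid response letters TGATGNAA, on either strand, stood in 4 of 22 list promoters (18.2%) and in 1.27% of all promoters. The promoters of ASNS and CHAC1 are shown as the members with the largest falls. That of ASNS lies at chr7:97872409-97872658 on the minus strand, before a start that RefSeq annotates inside the span of the gene, with a match 68 bases before that start, and that of CHAC1 at chr15:40953221-40953470 on the plus strand, with a match on the opposite strand that starts 209 bases before the gene. Capitals mark the matches.
ASNS: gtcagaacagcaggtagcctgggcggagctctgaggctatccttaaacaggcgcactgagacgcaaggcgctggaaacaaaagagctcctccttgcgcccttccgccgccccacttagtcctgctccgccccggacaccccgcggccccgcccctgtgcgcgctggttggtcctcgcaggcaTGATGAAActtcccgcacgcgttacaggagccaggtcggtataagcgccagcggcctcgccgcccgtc
CHAC1: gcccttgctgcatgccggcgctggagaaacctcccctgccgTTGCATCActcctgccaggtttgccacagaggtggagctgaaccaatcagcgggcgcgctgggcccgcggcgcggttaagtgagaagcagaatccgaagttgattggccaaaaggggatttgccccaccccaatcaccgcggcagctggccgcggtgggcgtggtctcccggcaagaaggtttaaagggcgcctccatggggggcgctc

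Genes of the unfolded protein response split by member. HSPA5, the chaperone BiP, read 74.4, 65.4 and 72.4 FPKM in control and 69.0, 77.1 and 70.4 FPKM in OGD/R and was not called (log2 fold change 0.03, SE 0.09, adjusted p = 0.812). Of 24 tested genes of the ATF6 and XBP1 arms, 7 (29.2%) were higher and 4 (16.7%) lower, shares near those of all genes, and with the length and GC trends removed 11 were higher and 3 lower. HYOU1, an endoplasmic reticulum chaperone, read 13.2, 12.6 and 10.01 FPKM in control and 33.5, 35.5 and 36.4 FPKM in OGD/R (2.94-fold, log2 fold change 1.49, SE 0.11, adjusted p = 3.61e-06). PDIA4, a disulfide isomerase, rose from 20.1 to 45.9 FPKM (1.153), and SYVN1, the ubiquitin ligase HRD1 whose gene overlaps MRPL49, rose from 3.62 to 10.7 FPKM (1.36). DNAJB9, a cochaperone of BiP, fell from 21.0 to 11.03 FPKM (-0.88), SDF2L1 from 32.4 to 19.0 FPKM (-0.73) and MANF, a secreted stress protein, from 111 to 69.4 FPKM (-0.63), a call lost with the length trend removed (adjusted p = 0.0543). In these 6 genes the groups did not overlap.

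HIF targets and glucose genes were higher in part. The HIF target list also held the HIF subunit genes HIF1A and EPAS1, the latter called higher. Of its 28 genes tested, 13 (46.4%) rose and 4 (14.3%) fell, with a median of 0.33. After median-of-ratios scaling 12 rose and 8 fell, and with the length and GC trends removed 12 and 1. VEGFA, the vascular growth factor, read 45.2, 37.7 and 26.7 FPKM in control and 63.6, 84.0 and 71.6 FPKM in OGD/R (1.998-fold, log2 fold change 1.002, SE 0.16, adjusted p = 0.000471). CA9, carbonic anhydrase IX, read 23.1, 18.4 and 20.5 FPKM in control and 34.2, 37.9 and 35.8 FPKM in OGD/R (1.74-fold, log2 fold change 0.78, SE 0.11, adjusted p = 0.000207). BHLHE40, a transcription repressor, rose from 28.8 to 83.7 FPKM (1.52). BNIP3, a mitophagy receptor whose gene overlaps PPP2R2D, moved down, from 258 to 167 FPKM (-0.62), as did FAM162A, which overlaps WDR5B (-0.59), and INSIG2 (-0.50). The FAM162A and INSIG2 calls were lost with the length and GC trends removed (adjusted p = 0.398 and 0.826). HIF1A itself read 76.9, 90.3 and 69.3 FPKM in control and 55.9, 70.8 and 68.9 FPKM in OGD/R and was not called (log2 fold change -0.27, SE 0.12, adjusted p = 0.0861).

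Of 21 genes of glycolysis and glucose uptake, 9 (42.9%) were higher and 2 lower, with a median of 0.29. SLC2A1, the glucose transporter GLUT1 of the blood-brain barrier (chromosome 1, 42925353 to 42958868 on GRCh38.p14), read 44.9, 45.1 and 39.6 FPKM in control and 95.0, 106 and 95.6 FPKM in OGD/R (2.29-fold, log2 fold change 1.18, SE 0.09, adjusted p = 4.83e-06). The hexokinase genes HK1 and HK2 rose from 19.9 to 41.7 FPKM (1.04) and from 3.14 to 7.998 FPKM (1.13). ALDOC, an aldolase, fell from 54.0 to 33.5 FPKM (-0.68). SLC16A1, the lactate transporter MCT1, read 56.1, 59.7 and 49.4 FPKM in control and 38.2, 45.8 and 47.7 FPKM in OGD/R (log2 fold change -0.32, SE 0.11, adjusted p = 0.0381), a call lost in 10 alternatives. The list for the glucose sensor MondoA held its own gene and the genes MLX, OGT and OGA beside target genes. It had 6 of 9 higher and 0 lower, with a median of 0.52, and 3 of 9 higher with the length trend removed. The higher members included MLXIP, which encodes MondoA (from 0.805 to 2.28 FPKM, 0.87), and KLF10, a transcription factor (from 14.2 to 25.4 FPKM, 0.80). Another was OGT, which adds N-acetylglucosamine to proteins (from 12 to 19.4 FPKM, 0.66, lost in 2 alternatives). MLXIP read under 1 FPKM in every control library and passed the filter only through the OGD/R libraries, where it was high. TXNIP, the glucose-induced thioredoxin-binding protein, read 19.5, 19.1 and 17.3 FPKM in control and 16.0, 20.2 and 17.9 FPKM in OGD/R with overlapping groups and was not called (log2 fold change -0.05, SE 0.12, adjusted p = 0.774).

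Junction genes moved unevenly. Of 22 genes listed for tight junctions, 12 passed the filter, 5 of these were higher and 1 lower, and the median was 0.33. Without OGD/R replicate 2, 3 were higher, and with the length and GC trends removed the median was 0.10. CLDN1, a claudin gene that overlaps CLDN16, read 3.59, 3.29 and 3.75 FPKM in control and 6.15, 8.41 and 6.90 FPKM in OGD/R (2.02-fold, log2 fold change 0.84, SE 0.13, adjusted p = 0.000388). TJP1, the scaffold ZO-1, read 11.4, 10.9 and 9.35 FPKM in control and 15.4, 18.3 and 15.5 FPKM in OGD/R (1.55-fold, log2 fold change 0.59, SE 0.12, adjusted p = 0.00273). PARD6A, a polarity protein, fell from 3.69 to 1.88 FPKM (-0.72). Occludin, OCLN, read 2.84, 4.18 and 3.04 FPKM in control and 3.41, 4.37 and 3.33 FPKM in OGD/R and was not called (log2 fold change 0.12, SE 0.16, adjusted p = 0.577). CLDN5, the main claudin of brain endothelium, read no more than 0.0988 FPKM in any of the 6 libraries and did not pass the filter. Of 17 adherens junction genes 9 (52.9%) rose and 1 fell, with a median of 0.61, or 0.22 with both trends removed. ACTN1, an actin crosslinker, rose from 60.5 to 151 FPKM (1.31) and NECTIN2, an adhesion receptor, from 21.6 to 43.5 FPKM (0.99), while the NECTIN3 call (-0.32, adjusted p = 0.0356) was lost in 10 alternatives. CDH5, VE-cadherin, read 1.38, 1.39 and 0.991 FPKM in control and 1.86, 2.62 and 1.44 FPKM in OGD/R, without overlap but not called (log2 fold change 0.38, SE 0.16, adjusted p = 0.0657).

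Transport genes were higher more often than lower. Of 24 blood-brain barrier transporter genes tested, 14 (58.3%) were higher and 1 lower, with a median of 0.52, or 0.28 with the length and GC trends removed. SLC2A1 and SLC7A5, already given, led them, and LRP1, a receptor that clears proteins into the blood, read 2.49, 1.92 and 1.85 FPKM in control and 4.23, 5.92 and 5.40 FPKM in OGD/R (2.49-fold, log2 fold change 1.0, SE 0.14, adjusted p = 0.000238). The efflux pump genes were low. ABCB1, P-glycoprotein, whose gene overlaps RUNDC3B, read 1.08, 1.14 and 0.635 FPKM in control and 1.03, 1.33 and 1.14 FPKM in OGD/R (log2 fold change 0.16, SE 0.14, adjusted p = 0.4), and ABCG2 read 1.48, 1.19 and 0.863 FPKM in control and 0.585, 0.749 and 0.649 FPKM in OGD/R (log2 fold change -0.38, SE 0.15, adjusted p = 0.0542). Neither was called, although all OGD/R values of ABCG2 lay below the controls. Of the 15 endothelial identity genes tested 7 rose and 0 fell, with a median of 0.39, or 0.20 with both trends removed. ENG, endoglin, a TGF-beta coreceptor, read 17.0, 13.3 and 11.1 FPKM in control and 32.8, 38.0 and 30.3 FPKM in OGD/R (2.44-fold, log2 fold change 1.24, SE 0.14, adjusted p = 7.07e-05). The transcription factor genes ETS1 and SOX7 rose from 12.9 to 26.0 FPKM (0.96) and from 0.836 to 2.43 FPKM (0.93). Outside OGD/R, SOX7 reached 1 FPKM only in control replicate 1 (1.25 FPKM). It thus passed the filter only through the OGD/R libraries, where it was high, and its place among the 7 rises is not independent of the filter. PECAM1 was not called (from 1.11 to 1.27 FPKM, adjusted p = 0.534) and VWF was at or near 0 (no more than 0.0881 FPKM). THBD, thrombomodulin, an anticoagulant receptor of the KLF and shear list, rose from a low level (0.312, 0.0992 and 0.404 FPKM in control and 1.06, 1.32 and 1.57 FPKM in OGD/R). That list had 6 of 10 higher and 0 lower (4 higher without OGD/R replicate 2 and 3 without OGD/R replicate 3), with KLF6, a zinc finger factor (from 24.9 to 67.3 FPKM, 1.40), and PIEZO1, a mechanically gated channel whose gene overlaps CTU2 (from 4.41 to 12.8 FPKM, 1.35), above THBD.

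Matrix genes were higher more often than lower. Of 24 basement membrane and glycocalyx genes tested, 19 (79.2%) were higher and 0 lower, with a median of 0.77. With the length and GC trends removed, 12 were higher and 0 lower, with a median of 0.41. COL4A2, a type IV collagen chain (chromosome 13, 110307284 to 110513209 on GRCh38.p14), read 16.6, 10.2 and 9.62 FPKM in control and 33.8, 45.1 and 42.1 FPKM in OGD/R (3.32-fold, log2 fold change 1.68, SE 0.17, adjusted p = 3.59e-05). AGRN, the heparan sulfate proteoglycan agrin, read 11.5, 7.58 and 6.51 FPKM in control and 23.7, 32.6 and 31.6 FPKM in OGD/R (3.44-fold, log2 fold change 1.69, SE 0.18, adjusted p = 3.85e-05), and NID1, nidogen, read 7.22, 6.57 and 7.43 FPKM in control and 16.8, 23.0 and 19.5 FPKM in OGD/R (2.79-fold, log2 fold change 1.35, SE 0.14, adjusted p = 3.04e-05). The groups were apart in all 3. Of 18 metalloproteinase and inhibitor genes, 10 (55.6%) were higher and 1 lower, with a median of 0.42. MMP2, gelatinase A, read 19.0, 14.1 and 14.8 FPKM in control and 27.1, 36.4 and 30.4 FPKM in OGD/R (1.96-fold, log2 fold change 0.93, SE 0.14, adjusted p = 0.00031), while MMP9 was listed at 0 in all controls and at no more than 0.0594 FPKM in OGD/R. MMP14, which activates MMP2, read 30.7, 23.9 and 12.8 FPKM in control and 36.7, 40.3 and 50.2 FPKM in OGD/R (log2 fold change 0.96, SE 0.24, adjusted p = 0.00712) and missed the threshold with the length and GC trends removed (adjusted p = 0.0543). Among the inhibitors TIMP3, whose gene overlaps SYN3, rose from 28.1 to 70.5 FPKM (1.30). TIMP1, which overlaps SYN1, read 119.5, 125 and 133 FPKM in control and 156, 168 and 134 FPKM in OGD/R (log2 fold change 0.27, SE 0.09, adjusted p = 0.0386), a call lost in 12 alternatives, and RECK (-0.33, adjusted p = 0.0378) was lost in 9.

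Mesenchymal transition genes had 15 of 24 (62.5%) higher and 0 lower, with a median of 0.80. COL1A1 and ITGA5 were among them. Genes of contraction and of the factor SRF had 16 of 21 (76.2%) higher and 0 lower, with a median of 0.58. MYH9, non-muscle myosin heavy chain, read 36.5, 36.8 and 24.9 FPKM in control and 105, 124 and 118 FPKM in OGD/R (3.55-fold, log2 fold change 1.81, SE 0.13, adjusted p = 4.77e-06). FLNA, filamin A, rose from 82.9 to 187 FPKM (1.19) and TAGLN, an actin-binding protein whose gene overlaps PCSK7, from 53.6 to 123 FPKM (1.19). The list of YAP and TAZ targets, which also held YAP1 itself, had 13 of 18 (72.2%) higher and 0 lower. Its median was 0.54, or 0.36 with both trends removed. Beside F3, the matricellular genes CCN2 and CCN1 rose from 196 to 465 FPKM (1.25) and from 301 to 628 FPKM (1.06). Of 15 tested VEGF, Notch and angiogenesis genes 12 (80.0%) were higher and 0 lower, with a median of 0.89, or 0.56 with the length and GC trends removed. ECE1, which cuts big endothelin into its active form, read 17.5, 11.4 and 9.95 FPKM in control and 31.0, 39.0 and 36.7 FPKM in OGD/R (2.75-fold, log2 fold change 1.42, SE 0.17, adjusted p = 7.56e-05). HES1, a Notch target, read 27.1, 17.8 and 20.8 FPKM in control and 52.5, 68.9 and 56.1 FPKM in OGD/R (2.70-fold, log2 fold change 1.40, SE 0.15, adjusted p = 3.99e-05).

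Some markers of other vessel and tissue cells were higher in OGD/R too. Of 12 pericyte and smooth muscle markers 8 passed the filter and 6 were higher, and their summed level was 43.8 to 57.0 FPKM in control and 94.2 to 109.8 in OGD/R. They were led by MCAM (from 24.5 to 59.95 FPKM, 1.26), ANPEP (from 4.22 to 11.2 FPKM, 1.24) and CSPG4 (from 2.62 to 6.21 FPKM, 1.03). PDGFRB read 2.17 to 3.38 FPKM in control and 5.46 to 6.27 in OGD/R, and RGS5 0.680 to 3.31 and 0.737 to 1.598. KCNJ8 (listed at 0), ABCC9, DES and MYH11 stayed under 1 FPKM in all 6 libraries. NOTCH3, which was under 1 FPKM in every control library, and ACTA2 reached 2.17 and 5.29 FPKM. Of the 6 libraries compared, NOTCH3 reached 1 FPKM only in those of OGD/R, so its passing the filter may rest on that group. The part of these markers in the results above was not tested. Fibroblast markers had 2 of 4 tested higher, COL1A1 and COL1A2 (from 12.2 to 26.9 FPKM, 1.09), with sums of 53.8 to 68.4 FPKM in control and 92.5 to 111.9 in OGD/R, while PDGFRA, DCN, COL3A1, FAP and PDPN stayed under 1 FPKM. LUM and THY1 were not called. LUM was lower in OGD/R, at 4.08 to 4.68 FPKM in control and 2.87 to 4.07 in OGD/R. THY1 read 33.1 to 39.4 FPKM in control and 39.4 to 41.7 in OGD/R. Epithelial markers had 2 of 4 higher, MUC1 (from 2.77 to 9.56 FPKM, 1.49) and KRT18, which overlaps KRT8 (from 173 to 236 FPKM, 0.45), with sums of 171 to 206 FPKM in control and 252 to 270.5 in OGD/R, and EPCAM and CDH1 stayed under 1 FPKM. Neural and glial markers had 1 of 2 tested higher, TUBB3, with a call lost in 13 alternatives, and summed to 21.8 to 27.2 FPKM in control and 25.6 to 30.6 in OGD/R. In bulk RNA, fewer cells of a type and less RNA per cell cannot be told apart.

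Immediate early and ribosome biogenesis genes were higher more often than lower. Of 23 immediate early genes tested 16 (69.6%) rose and 1 fell, with a median of 0.62. SGK1 led them, MYC read 30.9, 25.5 and 25.8 FPKM in control and 74.8, 89.4 and 76.5 FPKM in OGD/R (2.93-fold, log2 fold change 1.52, SE 0.10, adjusted p = 2.54e-06) and NR4A1, an orphan nuclear receptor, read 6.31, 3.08 and 3.56 FPKM in control and 12.2, 15.1 and 13.6 FPKM in OGD/R (3.16-fold, log2 fold change 1.505, SE 0.20, adjusted p = 0.000163). The member that fell was CEBPD, an acute phase transcription factor (from 85.4 to 51.8 FPKM, -0.71). Among genes of ribosome biogenesis and targets of MYC, a list that also held MYC, 18 of 27 (66.7%) were higher and 0 lower. The list median was 0.60. NCL, nucleolin, read 82.5, 73.5 and 83.0 FPKM in control and 176, 226 and 182 FPKM in OGD/R (2.44-fold, log2 fold change 1.27, SE 0.13, adjusted p = 3.96e-05), and CAD, which starts pyrimidine synthesis, rose from 2.69 to 8.05 FPKM (1.30).

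Ribosomal protein and respiratory chain genes went the other way. Of 44 cytosolic ribosomal protein genes 26 (59.1%) were lower and 0 higher, with a median of -0.46. The count of lower genes was 12 without OGD/R replicate 2, 17 with no expression filter and 16 (median -0.14) after quantile normalization. RPL34 read 1168, 1095 and 1694 FPKM in control and 839.7, 533 and 715 FPKM in OGD/R (log2 fold change -0.92, SE 0.19, adjusted p = 0.00259), RPL7 fell by 0.73 and RPL9 by 0.71 on the log2 scale. These genes have processed pseudogenes with which reads may be shared, and the listed genes took 9.27% to 11.4% of summed FPKM in control and 7.19% to 9.04% in OGD/R. Of 32 nuclear encoded respiratory chain genes 16 (50.0%) were lower and 1 higher, with a median of -0.28. SDHD, a subunit of complex II, read 165, 217 and 184 FPKM in control and 102, 109 and 104 FPKM in OGD/R (log2 fold change -0.83, SE 0.10, adjusted p = 8.65e-05). The cytochrome oxidase genes COX7C and COX7A2 fell by 0.66 and 0.65. SDHA, another complex II subunit with a longer transcript, was called higher (from 46.8 to 60.5 FPKM, 0.36). Transcripts of both lists were short, with median lengths of 777 nt and 1083 nt. With the length trend removed the ribosomal list had 13 lower and 2 higher (median -0.12), and with the length and GC trends removed 15 and 1. The respiratory list had 7 lower and 5 higher (median -0.07) with the length trend removed. With the length and GC trends removed it had 6 lower and 0 higher (median 0.02), and the calls of RPL9, COX7C, COX7A2 and SDHA were lost (adjusted p = 0.0863 to 1.0).

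Cell cycle genes did not move in 1 direction. Of 32 mitotic and G2/M genes 9 (28.1%) were higher and 10 (31.2%) lower, against 24.7% and 16.5% of all genes tested, with a median of -0.06. CDK1, the mitotic kinase, read 329.8, 328 and 324 FPKM in control and 139.6, 165 and 167 FPKM in OGD/R (2.08-fold lower, log2 fold change -1.06, SE 0.09, adjusted p = 9.85e-06). MKI67, which encodes the Ki-67 antigen, read 4.75, 4.17 and 3.95 FPKM in control and 10.4, 12.4 and 10.8 FPKM in OGD/R (2.61-fold, log2 fold change 1.205, SE 0.12, adjusted p = 3.38e-05), and CENPF, a kinetochore protein, read 5.96, 5.24 and 5.07 FPKM in control and 13.3, 15.8 and 13.3 FPKM in OGD/R (2.60-fold, log2 fold change 1.23, SE 0.12, adjusted p = 3.28e-05). CDK1 was thus lower and the 2 others higher, each without overlap. With the length and GC trends removed the log2 fold changes of CDK1, MKI67 and CENPF were -0.53, 0.75 and 1.22. TPX2, a spindle factor, rose from 56.0 to 87.7 FPKM (0.63), and MAD2L1, a spindle checkpoint protein, fell from 60.1 to 37.9 FPKM (-0.65). CENPA, the centromeric histone, fell by 0.48, a call lost in 2 alternatives. After median-of-ratios scaling 8 of the list were higher and 15 lower, and with the length and GC trends removed 8 and 4. The count of lower genes was also 6 without control replicate 1 or 2, 4 without OGD/R replicate 1 and 5 without OGD/R replicate 3. Replication and G1/S genes had 7 of 34 (20.6%) higher and 5 (14.7%) lower, shares near those of all genes tested, with a median of -0.06. After median-of-ratios scaling 6 were higher and 12 lower, and with the length and GC trends removed 2 and 5. Without OGD/R replicates 1, 2 or 3 in turn, 3, 8 and 2 of this list were lower. CCND1, cyclin D1, read 11.2, 11.2 and 6.88 FPKM in control and 19.7, 24.4 and 22.2 FPKM in OGD/R (2.27-fold, log2 fold change 1.13, SE 0.16, adjusted p = 0.000251). CHAF1A, a chromatin assembly factor whose gene overlaps UBXN6, rose from 14.8 to 26.1 FPKM (0.80). PRIM1, a primase subunit, fell by 0.73, and its call was lost with the length and GC trends removed (adjusted p = 0.180). POLE and CCNE2 were called with overlapping groups and lost their calls in 6 and 12 alternatives. Of 11 histone genes 2 (18.2%) were higher, H2BC21 (0.65) among them, and 0 lower, against 24.7% and 16.5% of all genes tested. Reads of histone genes may be shared with close copies.

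Of 25 p53 targets 8 (32.0%) were higher and 5 lower, with a median of 0.04. The lower genes numbered 1 with the length trend removed, 2 with the length and GC trends removed, 1 without OGD/R replicate 2, and 3 without OGD/R replicate 1 or control replicate 1. CDKN1A, the cell cycle inhibitor p21, read 120.1, 117 and 105 FPKM in control and 123, 128 and 124 FPKM in OGD/R and was not called (log2 fold change 0.14, SE 0.08, adjusted p = 0.209). TNFRSF10B, a death receptor whose gene overlaps RHOBTB2, rose from 20.1 to 47.6 FPKM (1.22), PLK2, a stress kinase, from 62.7 to 106 FPKM (0.75) and GADD45A from 39.1 to 64.8 FPKM (0.74). CCNG1, which overlaps NUDCD2, FDXR and TP53I3, which overlaps FAM228B, were called lower (-0.68, -0.50 and -0.39), each call being lost in at least 1 alternative. Apoptosis and pyroptosis genes had 4 of 23 (17.4%) higher and 7 (30.4%) lower, with a median of -0.04, and 3 and 3 with the length and GC trends removed. Without OGD/R replicate 2, 2 were higher. MCL1, an antiapoptotic protein, rose from 53.6 to 77.6 FPKM (0.52), BIRC2, an inhibitor of apoptosis, from 25.2 to 32.6 FPKM (0.35, lost in 4 alternatives) and the inflammasome sensor NLRP1 from 3.20 to 5.35 FPKM (0.58, lost in 1). BAD, whose gene overlaps GPR137, CASP1 and its adaptor PYCARD were called lower (-0.57, -0.54 and -0.54), and each call was lost with the length trend or the length and GC trends removed.

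Antioxidant genes were lower more often than higher. The list of 24 genes for NRF2 and oxidative stress held NFE2L2, which encodes NRF2 itself, KEAP1, SOD2 and CAT beside others. Of the 24, 3 (12.5%) were higher and 7 (29.2%) lower, against 24.7% and 16.5% of all genes tested. The list median was -0.09. With the length and GC trends removed 3 were higher and 2 lower. Without OGD/R replicates 1, 2 or 3 in turn, 1, 1 and 2 were higher and 7, 3 and 4 lower. NQO1, a quinone reductase, read 154, 149 and 178 FPKM in control and 106, 97.2 and 106 FPKM in OGD/R (1.55-fold lower, log2 fold change -0.63, SE 0.09, adjusted p = 0.000216). SLC7A11, the cystine transporter, read 7.23, 6.49 and 6.58 FPKM in control and 3.40, 3.99 and 4.24 FPKM in OGD/R (1.75-fold lower, log2 fold change -0.68, SE 0.12, adjusted p = 0.00121). SOD1, superoxide dismutase, fell by 0.46, a call lost in 5 alternatives. The rises of TKT (0.26), PRDX6 (0.23) and OSGIN1, which overlaps NECAB2 (0.51), were small and lost in 4, 12 and 3 alternatives. HMOX1, heme oxygenase 1, read 17.3, 15.4 and 17.3 FPKM in control and 15.9, 15.8 and 15.3 FPKM in OGD/R and was not called (log2 fold change -0.08, SE 0.09, adjusted p = 0.5). Iron genes had 4 of 13 (30.8%) higher and 2 (15.4%) lower, shares near those of all genes tested (24.7% and 16.5%). TFRC, the transferrin receptor, read 45.0, 37.6 and 41.3 FPKM in control and 60.6, 76.3 and 76.9 FPKM in OGD/R (1.73-fold, log2 fold change 0.77, SE 0.11, adjusted p = 0.000227), and FTL, the ferritin light chain, which has many pseudogenes, read 1483, 1815 and 1652 FPKM in control and 1115, 933 and 984 FPKM in OGD/R (1.63-fold lower, log2 fold change -0.70, SE 0.12, adjusted p = 0.000697). FTH1, the ferritin heavy chain, went from 1212.5 to 1047 FPKM and was not called (-0.21, adjusted p = 0.129). The ferrireductase gene STEAP3 rose from 2.27 to 5.64 FPKM (1.03), the acyltransferase gene LPCAT3, which overlaps EMG1, from 5.17 to 10.2 FPKM (0.86), and NCOA4, the ferritin autophagy receptor, fell from 72.3 to 56.9 FPKM (-0.34, lost in 1 alternative). Metallothionein and zinc genes had 2 of 8 higher and 2 lower (1 lower with the length or the length and GC trends removed), with MT2A and MTF1 higher and MT1F and MT1E lower, and each of these 4 calls was lost in 1 or 2 alternatives.

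Heat shock genes had 4 of 15 higher and 3 lower, and 8 and 2 with the length and GC trends removed. Without OGD/R replicate 3, 1 was lower. HSP90AB1, a cytosolic HSP90 isoform, read 166, 139 and 142 FPKM in control and 353, 386 and 332 FPKM in OGD/R (2.40-fold, log2 fold change 1.26, SE 0.09, adjusted p = 4.97e-06). BAG3, a cochaperone, rose from 15.1 to 27.9 FPKM (0.85) and SERPINH1, a collagen chaperone, from 74.2 to 116 FPKM (0.64). HSPA8, DNAJA1 and DNAJB1, which overlaps TECR, were called lower by 0.28 to 0.33, and these calls were lost in 2, 3 and 10 alternatives. Autophagy and lysosome genes had 10 of 29 (34.5%) higher and 4 (13.8%) lower, against 24.7% and 16.5% of all genes tested. Their median was 0.19, and with the length and GC trends removed 10 were higher and 1 lower. Without OGD/R replicate 3, 2 were lower. PSAP, the precursor of saposins, read 132, 91.3 and 96.0 FPKM in control and 235, 266 and 259.6 FPKM in OGD/R (2.39-fold, log2 fold change 1.26, SE 0.12, adjusted p = 2.4e-05). GRN, progranulin, rose from 69.2 to 159 FPKM (1.2) and LAMP1, a lysosomal membrane protein, from 54.8 to 121 FPKM (1.146). NPC2, a lysosomal sterol carrier whose gene overlaps SYNDIG1L, fell from 327 to 222 FPKM (-0.55). GABARAPL2 and ATG5, of autophagosome formation, were called lower (-0.60 and -0.29), and lost their calls in 2 and 3 alternatives.

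**Figure D5:**
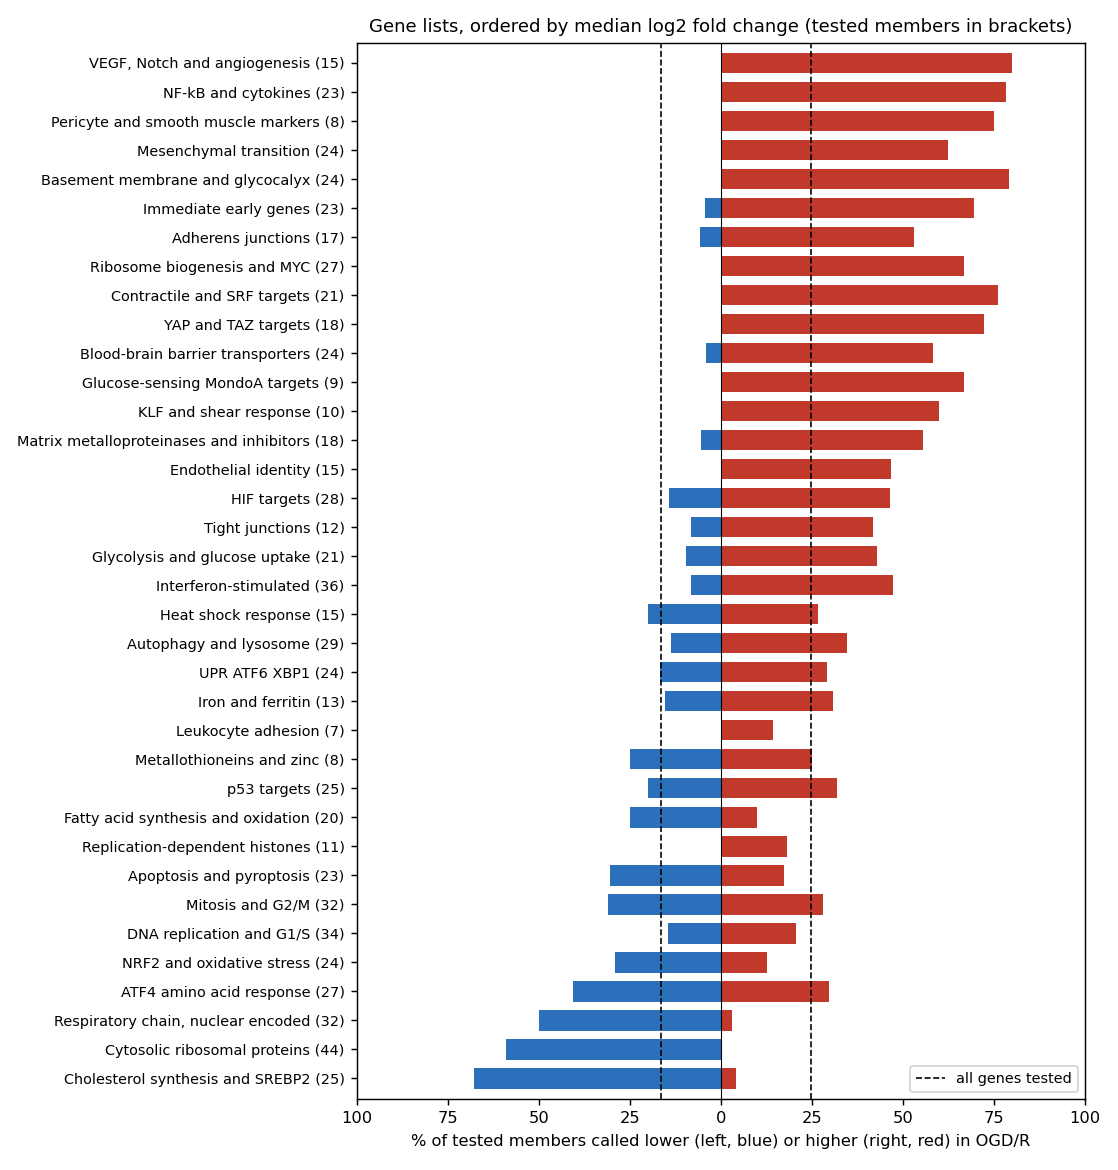
Bars give, for each gene list with at least 7 tested members, the percentage of those members called lower (blue, to the left) and higher (red, to the right) in OGD/R, ordered by the median log2 fold change of the list, and dashed lines mark the shares over all genes tested (16.5% lower, 24.7% higher). The 5 lists at the top (angiogenesis, NF-kB and cytokines, pericyte and smooth muscle markers, mesenchymal transition, basement membrane) had 62.5% to 80.0% higher and 0 lower, and the ribosomal protein (59.1% lower) and cholesterol (68.0% lower) lists lie at the bottom.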

How the data were processed

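RNA was profiled in 9 libraries (3 control, 3 OGD, 3 OGD/R), made from total RNA with a SMARTer mRNA kit per the labels. The authors deposited 1 table of FPKM values, 1 per gene and library, on GRCh38 per the submitters' processing notes. How reads were aligned and quantified, and whether by strand, is not given in the sources used here. Without counts the depth is unknown, and counting error is not given. FPKM summed to 454237 to 537878 in control and 442696 to 449248 in OGD/R, and 0 pairs of libraries were identical.

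The filter kept genes that reached 1 FPKM in 3 or more of all 9 libraries. A low gene can pass it through its higher group alone, so the calls of such genes are not independent of the filter. The genes kept were tested as log2(FPKM + 1), with no further scaling, in limma 3.58.1 (R 4.3.3). All 9 libraries entered 1 fit of 3 groups with an intensity trend (6 residual and 6.33 prior degrees of freedom), where the OGD libraries served only the spread and the filter. The contrast was OGD/R minus control, 2-sided, with Benjamini-Hochberg adjustment over 10818 genes, and called means an adjusted p under 0.05. The added 1 shrinks the log2 fold change of genes with low values, and folds are ratios of mean FPKM. On simulated data for this contrast with 10818 genes, 95% of 200 genes changed by 1 log2 unit were recovered, and 4.52% of the calls were false. The simulation changed only these 200 genes, while 4460 genes were called in the data. The 4.52% is thus not an estimate of the false share among the 4460 calls.

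Genes named were the 10 largest called changes in each direction whose higher group averaged 10 FPKM or more and whose groups did not overlap, up to 3 rises and 3 falls among the called members of each gene list, and a fixed set of genes whether or not they were called. Some genes that met this rule are not reported here. Lists were described by counts and medians, with no test of a list. Members and lists were chosen with earlier results of these data known. Coordinates, overlaps and promoters came from RefSeq (GRCh38.p14), and transcript lengths and GC content from GENCODE for 10804 of the genes tested. The alternatives changed the pseudocount (0.1), the filter, the scaling, the libraries in the fit, the prior, the intensity trend, the replicate block, the length trend and each library left out. Removal of the length and GC trend was added after seeing the data. Figures were drawn with matplotlib 3.10.9.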

Additional observations from a re-analysis of the deposited data

How the results depend on the processing

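The numbers of genes called higher and lower stayed within 1.5 times those given above under the alternatives tried, except that 1094 genes were lower with the length and GC trends removed. Genes at least 2-fold higher numbered 644 with a pseudocount of 0.1 and 182 with the length and GC trends removed. Genes at least 2-fold lower numbered 93 with a pseudocount of 0.1, 77 after median-of-ratios scaling, 93 after quantile normalization, 31 with the length trend removed and 28 with the length and GC trends removed. Leaving out 1 library at a time gave 1905 to 3015 higher, 1366 to 1884 lower, 260 to 470 at least 2-fold higher and 43 to 61 at least 2-fold lower genes. The deviations of control and OGD/R libraries of the same number from their group means correlated at -0.20, 0.15 and -0.11. Those of control replicate 3 and OGD/R replicate 1 correlated at 0.37. With 3 libraries a group the deviations sum to 0, so these values cannot decide whether libraries of the same number were handled together. No label states it. With the replicate block 2474 genes were higher and 1654 lower, 334 and 48 of them at least 2-fold.

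Of 165 called genes that met the naming rule, 120 kept their call in all 20 alternatives and 45 lost it in at least 1, of which 36 did so with the length or the length and GC trends removed and 25 when a library was left out. Of 17 lists with 0 lower genes, 11 had 1 lower gene in at least 1 alternative, and the mesenchymal list had 2 without control replicate 1. The sign turned for SOD1 (0.00184), COX7C (9.36e-07) and CCNG1 (0.013) with the length and GC trends removed, and for IFI27 (0.00744) after quantile normalization. The causes were not tested. Depth is unknown, so how far it limits the low genes cannot be stated.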
